A study of Mus musculus with 2 samples.

Results

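The vacuolar proton pump (V-ATPase) and the Rab GTPases were followed in microglia, the resident macrophages of nervous tissue, sorted from mouse retina at postnatal day 5. Members were the protein-coding rows of the count table whose symbols begin with Atp6v0, Atp6v1, Atp6ap1 or Atp6ap2, or consist of Rab, a number and at most 1 letter. The rule used names and no measured value, and it gave 63 of 13549 genes, 18 of the V-ATPase group and 45 Rabs. All 63 had at least 20 reads over both libraries, the minimum used for every count of genes below.

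Both groups came from CD11c-Cre-gfp;Rosa-TDTom animals, in which the CD11c (*Itgax*) promoter drives a Cre-GFP and Cre switches on TdTomato for good. The Cd11c-active group was sorted as GFP+TdTom+ (4041 cells) and the Cd11c-lineage group as GFP-TdTom+ (5441 cells), so both had used the promoter and only the former carried GFP when sorted. The cells were pooled from 8 retinas, with 4 female and 4 male, and each group gave 1 library. The difference between the groups therefore has no replicate check, no test of the conditions can be made, and every value below compares these 2 libraries.

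The V-ATPase moves protons into endosomes, phagosomes and lysosomes. Its V1 sector, in the cytosol, splits ATP, and its V0 sector, in the membrane, conducts the protons. Rab GTPases mark membranes and recruit the factors that move and fuse them: Rab5 on early endosomes and phagosomes, Rab7 on late ones and Rab11 on recycling endosomes. In macrophages a swallowed particle passes from a Rab5-positive to a Rab7-positive phagosome and is acidified by the V-ATPase on the way.

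The Cd11c-active library held 12943998 reads and the Cd11c-lineage library 13402625. The 8 microglial markers had at least 1000 reads each and summed to 19998 and 19114 CPM (reads scaled to a common library size with TMM factors) in Cd11c-active and Cd11c-lineage. *Itgax* had 2409 and 1698 reads. Markers of other cells were not equal: 8 of 8 endothelial genes were higher in Cd11c-active (summed 646 and 73.7 CPM), with *Cldn5*, *Esam*, *Flt1*, *Plvap* and *Tek* at 0 in Cd11c-lineage. Of 8 retinal neuron genes 7 were lower in Cd11c-active (77.2 and 162 CPM), as were 4 of 4 border macrophage genes (21.2 and 128 CPM), with *Cd163*, *F13a1* and *Lyve1* at 0 there. Of 4 Muller glia genes 3 were lower in Cd11c-active. Their sum of 2267 and 2437 CPM was mostly *Glul* (27773 and 33293 reads), while *Slc1a3* had 73 and 642 reads, *Dkk3* 47 and 301, and *Rlbp1* 94 and 0. Fewer cells of a type and less RNA per cell cannot be told apart in such libraries.

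Each difference is given as the log2 ratio of Cd11c-active over Cd11c-lineage, so that 1 means 2-fold higher in Cd11c-active. The libraries differed far more than independent reads would. Between 200 and 3199 reads the spread of the log2 ratio across genes corresponded to 84.9 to 88.5 times the counting variance, and it was 107 times from 3200 to 6399 reads and 152 times above. This factor is called overdispersion, and it also holds any true differences among genes. Widened intervals are 95% Clopper-Pearson intervals on reads divided by the overdispersion of the gene's range of reads. Genes under 200 reads were given the factor of the range from 200 to 399 reads, 84.9, which was not estimated on them. Genes with 0 reads in either library did not enter the estimates. Of all 13037 genes with at least 20 reads, 44.9% had an absolute log2 ratio of at least 1, and 1.83% had a widened interval without 0.

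The 63 members together took nearly the same share of both libraries. Their summed reads were 76476 in Cd11c-active against 81211 in Cd11c-lineage, or 6194 and 5780 CPM, a log2 ratio of 0.10 (widened interval -0.06 to 0.26). The median of the 18 V-ATPase members was 0.01 and that of the 45 Rabs 0.01, beside 0.01 over all genes with at least 20 reads, and both stayed at those values with members at 0 reads set to 3 reads. No member had a widened interval without 0 (0 of 63, beside the 1.83% of all genes). Past the fold threshold of 1 were 13 members, 2 of 18 in the V-ATPase group (11.1%) and 11 of 45 Rabs (24.4%), beside 44.9% of all genes. Of these 13, 12 had under 1000 reads over both libraries.

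**Figure D1:**
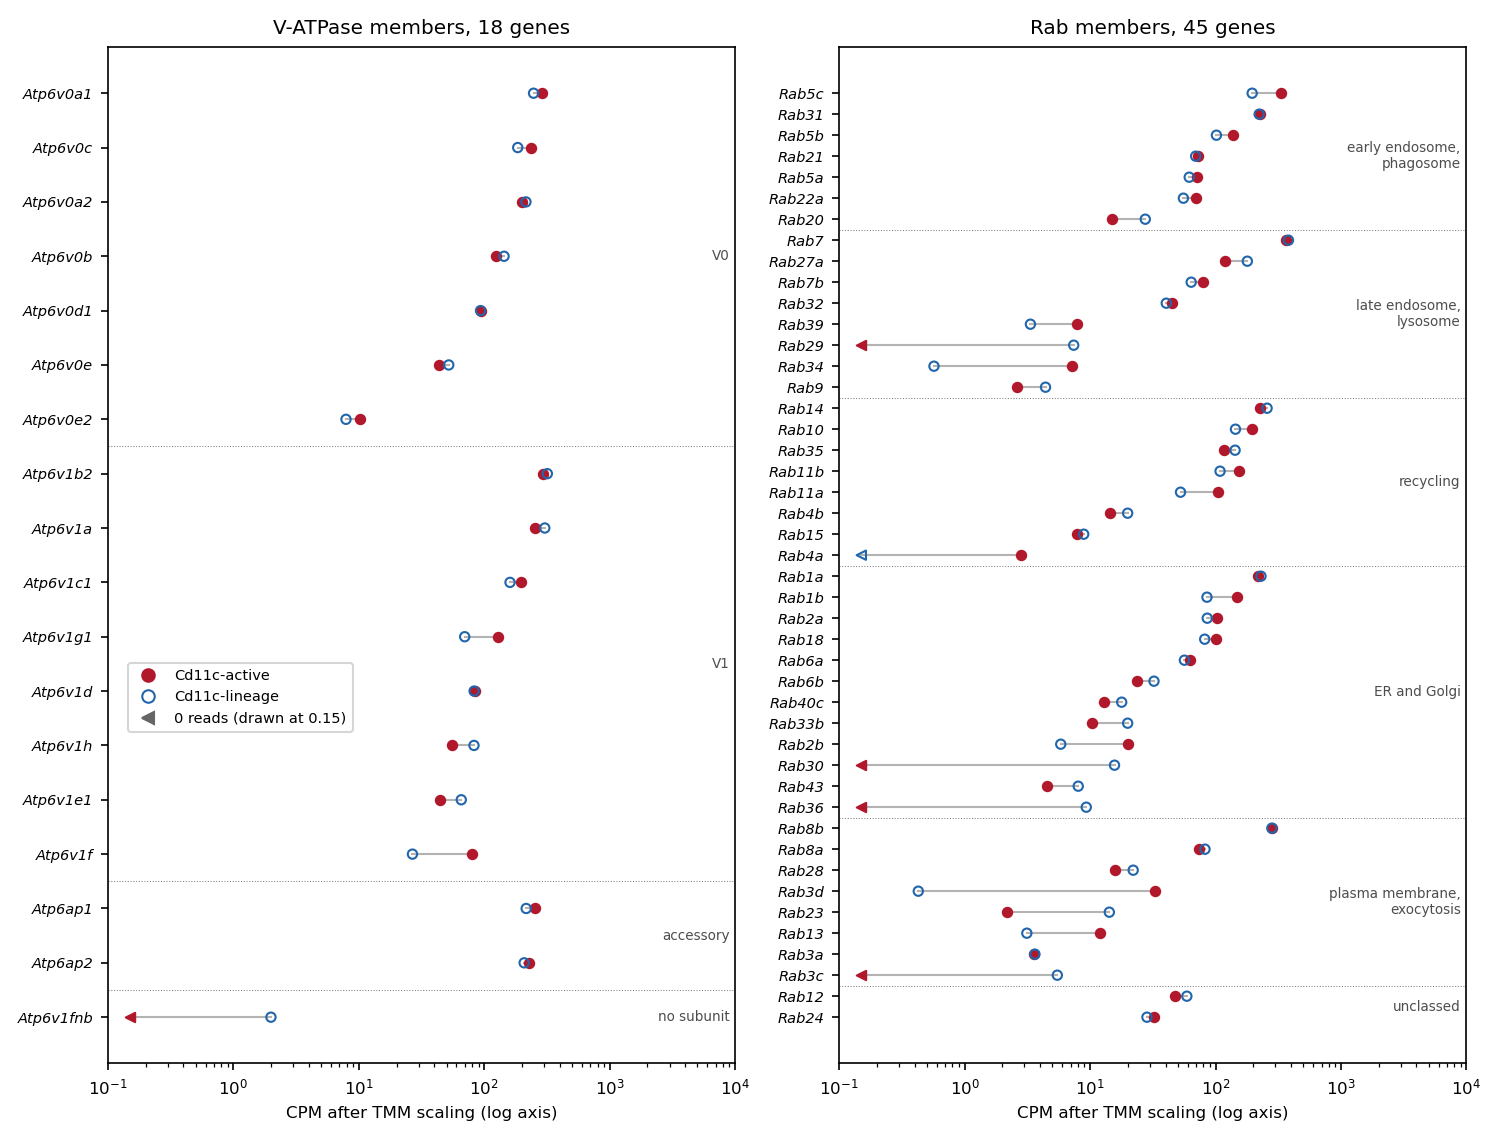
Level of each member in CPM on a log axis, V-ATPase group at left and Rabs at right, by class and then by reads. Filled points are Cd11c-active, open points Cd11c-lineage, and triangles mark 0 reads; the paired points lie close together for abundant members and far apart for several with few reads, such as *Rab3d*.

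The abundant members lay closer to equality. Of the 39 with at least 1000 reads, 1 was past the fold threshold, beside 9.57% of the 4619 genes with as many reads, and their log2 ratios ran from -0.59 to 1.57 with a median of 0.14. Among 16 V-ATPase members of this kind 9 were above 0 and 12 were within 0.5 of it, and among 23 Rabs 16 were above 0 and 18 were within 0.5. Of all genes with at least 1000 reads 48.6% were above 0 and 64.3% were within 0.5. These splits depend on the scaling: TMM moved all ratios up by 0.14 against library totals, and under library totals 7 of 16 V-ATPase members, 13 of 23 Rabs and 38.3% of all such genes were above 0. The gene with the most reads was *Rn18s*, a ribosomal RNA gene. Without it the log2 ratio of the summed reads of all genes was 0.05 under TMM, against 0.14 with it. The members that changed sign were *Atp6v0d1*, *Atp6v1d*, *Rab21*, *Rab31* and *Rab8b* under library totals, and *Atp6v0d1*, *Rab14* and *Rab31* after removal of a trend with exon length and GC content.

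**Figure D2:**
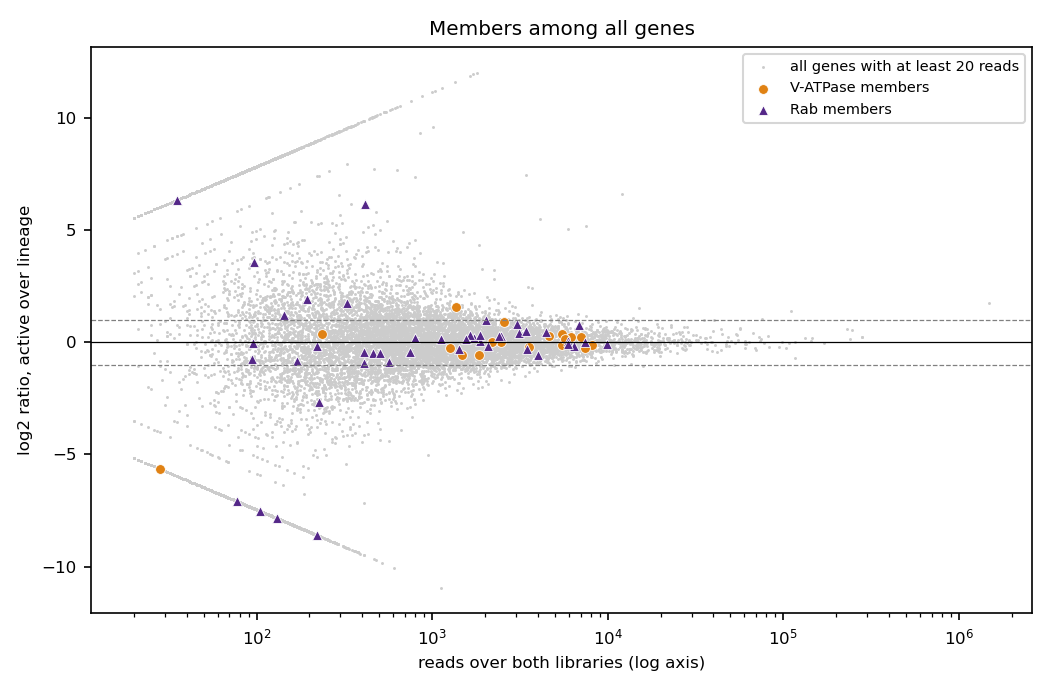
Log2 ratio against reads over both libraries (log axis) for the members and for all 13037 genes with at least 20 reads. The spread narrows with reads, the straight diagonal edges are genes with 0 reads in either library, and the members lie within the spread of the other genes.

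Promoter sequence was examined as a feature that the choice of members did not use. Many lysosomal genes carry a site for the TFE family of factors, which holds the E-box core CACGTG, often as TCACGTG. Both letter strings were searched on both strands of the RefSeq promoter table (GRCm38.p6, 250 bases before to 50 after each start), where every TCACGTG match also holds the core. It matched 52 of the 63 members by symbol. TCACGTG was present in 4 of 13 V-ATPase members (*Atp6v0b*, *Atp6v0d1*, *Atp6v0e* and *Atp6v1a*) and in 4 of 39 Rabs (*Rab5a*, *Rab21*, *Rab23* and *Rab24*). By promoter this was 26.7% of 15 V-ATPase promoters and 7.84% of 51 Rab promoters, beside 3.77% of all 32851 promoters and 6.04% of 12363 promoters of genes with at least 20 reads here. CACGTG was present in 26.7% and 11.8%, beside 7.15% of all promoters and 9.97% of those of genes with at least 20 reads. The stretches below, 1 for each member with at least 1000 reads and TCACGTG wholly before the start, show the match and its context. Capitals mark TCACGTG on the printed strand or, with a final A, on both, and each line runs 5′ to 3′ along the gene's strand.
Atp6v0b: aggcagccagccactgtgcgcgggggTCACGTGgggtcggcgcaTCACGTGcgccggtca
Atp6v1a: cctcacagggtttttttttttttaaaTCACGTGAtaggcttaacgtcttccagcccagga
Rab21: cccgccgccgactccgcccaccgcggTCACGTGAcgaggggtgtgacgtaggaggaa
Rab5a: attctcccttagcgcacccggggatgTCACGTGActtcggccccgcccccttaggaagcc
They lie at chr4:117887333-117887392 (minus strand), chr16:44139358-44139417 (minus), chr10:115315592-115315648 (minus) and chr17:53479112-53479171 (plus). The core begins 36 and 18 bases before the start in *Atp6v0b*, 131 in *Atp6v1a*, 30 in *Rab21* and 95 in *Rab5a*, whose promoter has another match farther upstream. The log2 ratios of these genes were -0.20, -0.26, 0.07 and 0.20. The other carriers of TCACGTG, *Atp6v0d1*, *Atp6v0e*, *Rab23* and *Rab24*, had 0.002, -0.25, -2.68 and 0.19. The V-ATPase carriers were thus level or below 0, and the Rab carriers stood on either side of 0. Every widened interval of these genes included 0.

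The V0 sector had 7 members and none was past the fold threshold. Their summed reads were 12254 in Cd11c-active against 13262 in Cd11c-lineage, or 992 and 944 CPM, a log2 ratio of 0.07 (widened -0.32 to 0.47). *Atp6v0c* encodes the proteolipid of the proton-carrying ring and had 235 CPM in Cd11c-active against 185 in Cd11c-lineage, a log2 ratio of 0.35 (widened -0.50 to 1.20). *Atp6v0b*, another ring subunit, went the other way, with 125 and 144 CPM and a ratio of -0.20 (-1.30 to 0.87). *Atp6v0d1*, which joins the ring to the central stalk, was level at 93.5 and 93.4 CPM (0.002, widened -1.18 to 1.17). The small membrane subunits *Atp6v0e* and *Atp6v0e2* had 43.7 against 52.1 and 10.2 against 7.90 CPM, the latter on 126 and 111 reads.

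Subunit a anchors the pump in a given membrane, and 2 of its isoforms were members. *Atp6v0a1* had 287 CPM in Cd11c-active against 247 in Cd11c-lineage, a log2 ratio of 0.21 (widened -0.68 to 1.11). *Atp6v0a2*, known from Golgi and endosomes, had 198 and 215 CPM, a ratio of -0.12 (-0.98 to 0.73). A further isoform, a3, is encoded by *Tcirg1*, which the rule on symbols does not reach, and is known from lysosomes of macrophages and from osteoclasts. *Tcirg1* had 2937 and 2059 reads and a ratio of 0.70 (-0.20 to 1.62). Per exon length it made up 41.4% of the summed RPKM (reads scaled to exon length and library size) of these isoforms in Cd11c-active and 31.4% in Cd11c-lineage. *Atp6v0a2* made up 23.6% and 31.5%, and *Atp6v0a1* 35.0% and 37.1%. The ratio of *Tcirg1* exceeded that of *Atp6v0a2* by 0.81 on the log2 scale (widened -0.35 to 1.97), an interval that includes 0.

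The V1 sector had 8 members, 4 above and 4 below 0. Their summed reads were 14004 and 15601, or 1134 and 1110 CPM, a log2 ratio of 0.03 (widened -0.35 to 0.41). The catalytic subunit *Atp6v1a* had 253 CPM in Cd11c-active against 304 in Cd11c-lineage (-0.26, widened -1.16 to 0.61). Its partner in the catalytic ring, *Atp6v1b2*, had 295 and 318 CPM (-0.11, -0.95 to 0.72), so both ring subunits were slightly lower in Cd11c-active. *Atp6v1c1*, which links the sectors reversibly, had 195 and 160 CPM (0.28, -0.65 to 1.21), and *Atp6v1d* of the central stalk 84.1 and 83.0 CPM (0.02, -1.24 to 1.26).

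The members farthest from equality in the pump were small or regulatory V1 subunits. *Atp6v1f*, of the central stalk, had 985 reads in Cd11c-active against 376 in Cd11c-lineage, which is 79.8 and 26.8 CPM. It was thus 2.98-fold higher in Cd11c-active, with a log2 ratio of 1.57, a 95% counting interval from 1.40 to 1.75 and a widened interval from -0.11 to 3.57. In the authors' deposited table its log2 fold change is 1.44, the value that library totals give here, without the TMM shift of 0.14. It was the only member with at least 1000 reads past the fold threshold, where 5.43% of genes were past it upward and 4.14% downward. *Atp6v1g1*, of the peripheral stalk, had 128 and 69.8 CPM (0.88, widened -0.28 to 2.10). In the other direction stood *Atp6v1h*, which governs coupling of the sectors, with 54.8 and 82.8 CPM (-0.59, -2.09 to 0.79), and the peripheral stalk subunit *Atp6v1e1* with 44.7 and 65.5 CPM (-0.55, -2.22 to 0.99). *Atp6v1g1* and *Atp6v1e1* thus had ratios of opposite sign although their products pair in the same stalk.

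The subunits with the highest ratios were also the shortest. *Atp6v1f* and *Atp6v1g1* have 1063 and 1135 bases of annotated exon, the least among the 17 members that encode pump or accessory proteins. After a trend of the log2 ratio with exon length and GC content over all genes was removed, their ratios were 1.17 and 0.58. The summed reads of the V0 and V1 sectors differed in ratio by 0.04 (V0 minus V1, widened -0.49 to 0.57), a value that does not depend on scaling.

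Both accessory proteins had ratios slightly above 0. *Atp6ap1*, which helps assemble the pump, had 254 and 216 CPM (0.23, widened -0.56 to 1.03), and *Atp6ap2*, also known as the prorenin receptor, 229 and 208 CPM (0.14, -0.69 to 0.97). Per exon length these were among the most abundant members of the group in both libraries, with 83.9 and 71.3 RPKM for *Atp6ap1* and 87.3 and 79.4 for *Atp6ap2*. *Atp6v1g1* was highest in Cd11c-active at 113 RPKM, against 61.5 in Cd11c-lineage. *Atp6v1fnb* matches the rule by its symbol and is named for its neighbour *Atp6v1f*, without being a subunit. It had 28 reads, all in Cd11c-lineage.

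**Figure D3:**
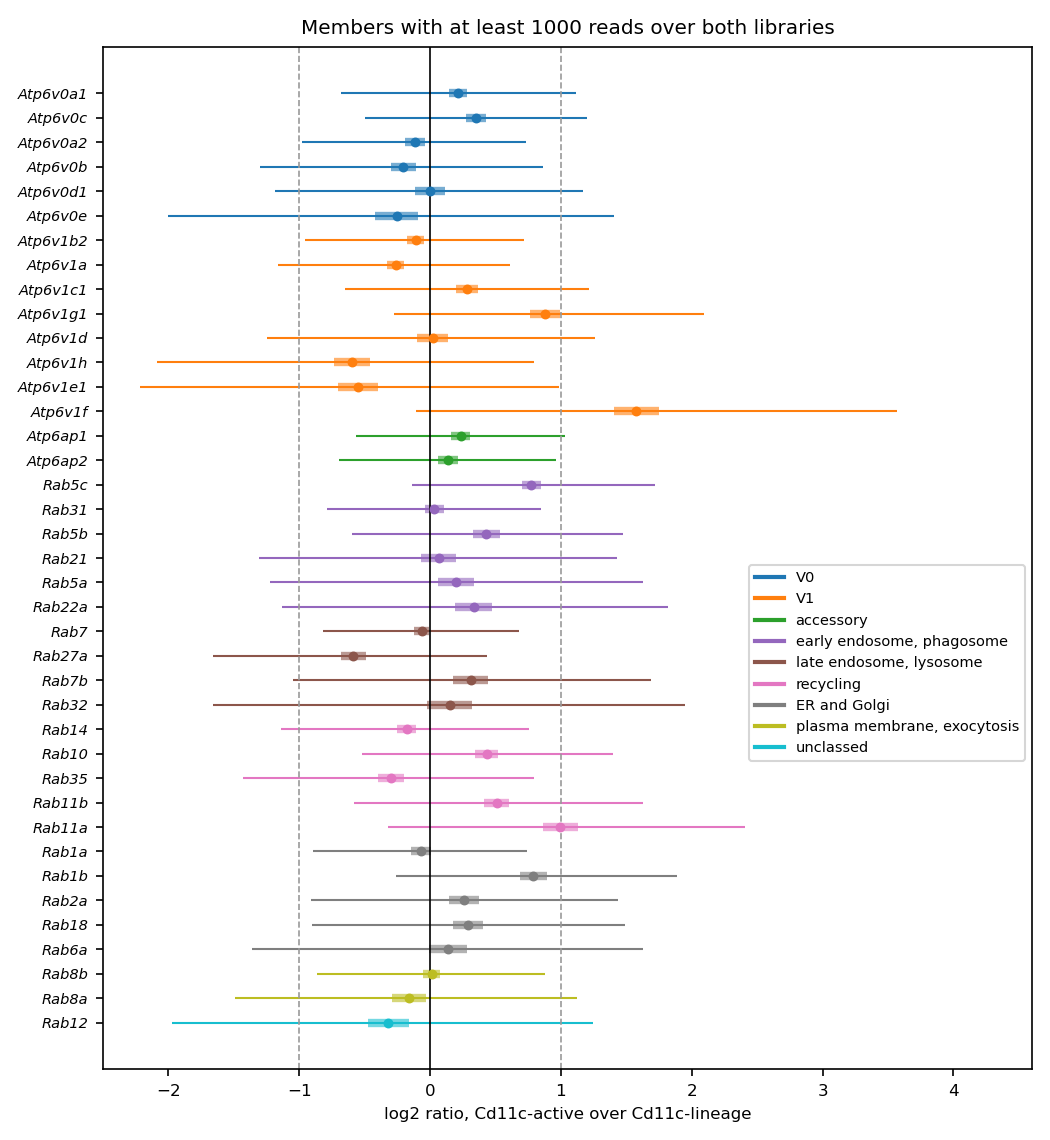
Log2 ratio of the 39 members with at least 1000 reads, by class. Points are ratios, thick bars 95% counting intervals and thin lines widened intervals; every widened interval includes 0, and *Atp6v1f* at 1.57 lies farthest from it.

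The Rabs of early endosomes and phagosomes were higher in Cd11c-active in 6 of 7 cases, beside 50.2% of all genes with at least 20 reads, by amounts within the spread between the libraries. Their summed reads were 11460 and 10322, or 928 and 735 CPM, a log2 ratio of 0.34 (widened -0.09 to 0.76). None of the 7 was past the fold threshold. Under library totals 4 of 7 were above 0, beside 44.6% of all genes with at least 20 reads. After removal of the trend with exon length and GC content 5 of 7 were above 0, beside 49.5%. Without *Rab5c*, the member with the most reads, the sum gave 0.14 (-0.33 to 0.61), so the value rests largely on that gene.

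Rab5 organises the early endosome and phagosome and has 3 isoforms, all higher in Cd11c-active. *Rab5c* had 4138 reads in Cd11c-active against 2753 in Cd11c-lineage, which is 335 and 196 CPM, 1.71-fold higher (log2 ratio 0.77, counting interval 0.70 to 0.84, widened -0.14 to 1.72). For *Rab5c* the authors' deposited table has 0.64, and the ratio was 0.51 after removal of the length and GC trend. *Rab5b* had 137 and 102 CPM (0.43, -0.60 to 1.47), and *Rab5a* 70.8 and 61.7 CPM (0.20, -1.23 to 1.62). *Rab5c* was also the main isoform per exon length, with 76.8% of the summed Rab5 RPKM in Cd11c-active and 71.3% in Cd11c-lineage. The ratio of *Rab5c* exceeded that of *Rab5a* by 0.58 (widened -0.96 to 2.11), which does not separate the isoforms.

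The other early Rabs had ratios from -0.89 to 0.33. *Rab31*, a relative of Rab5 abundant in macrophages, had 228 and 223 CPM (0.03, widened -0.79 to 0.84). *Rab21*, which acts in integrin uptake, had 72.7 and 69.5 CPM (0.07, -1.31 to 1.43), and *Rab22a* 69.8 and 55.4 CPM (0.33, -1.13 to 1.82). *Rab20*, known from phagosome maturation in macrophages, was the one below 0, with 183 reads in Cd11c-active against 387 in Cd11c-lineage (-0.89, -4.26 to 1.80). It passes the threshold under library totals, at -1.03.

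The Rabs of late endosomes, lysosomes and lysosome-related organelles summed to 7730 and 9568 reads, or 626 and 681 CPM, a log2 ratio of -0.12 (widened -0.64 to 0.39). Of 8 members 4 were above and 4 below 0. *Rab7*, which drives fusion with lysosomes, was the member with the most reads of all 63, with 4504 in Cd11c-active and 5360 in Cd11c-lineage. Its 365 and 381 CPM gave a ratio of -0.06 (-0.82 to 0.68). Its relative *Rab7b* had 79.3 and 64.0 CPM (0.31, -1.05 to 1.69). *Rab7* held 89.1% of their joint RPKM in Cd11c-active and 91.4% in Cd11c-lineage.

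Among the remaining late Rabs *Rab27a* stood lowest of those with at least 1000 reads. It governs release of lysosome-related organelles and had 1475 and 2519 reads, or 119 and 179 CPM. This was 1.50-fold lower in Cd11c-active (-0.59, counting -0.68 to -0.49, widened -1.66 to 0.44), and for *Rab27a* the authors' deposited table has -0.72. *Rab32*, which acts in delivery to lysosome-related organelles, had 45.0 and 40.5 CPM (0.15, widened -1.66 to 1.95). The other 4 had few reads: *Rab39* had 97 in Cd11c-active and 47 in Cd11c-lineage, *Rab34* 88 and 8, *Rab9* 32 and 62, and *Rab29* 0 and 104. *Rab34* and *Rab39* were past the threshold upward and *Rab29* downward, each with a widened interval that includes 0.

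The recycling Rabs summed to 10161 and 10329 reads, or 823 and 735 CPM, a log2 ratio of 0.16 (widened -0.28 to 0.61), and 4 of 8 were above 0. *Rab11a*, the marker of the recycling endosome, had 1294 reads in Cd11c-active against 739 in Cd11c-lineage, which is 105 and 52.6 CPM. It was 1.99-fold higher in Cd11c-active, just short of the threshold (0.99, counting 0.86 to 1.13, widened -0.32 to 2.41), and reached 1.02 after removal of the length and GC trend. *Rab11b* had 155 and 109 CPM (0.51, -0.58 to 1.62) and *Rab10*, which acts in recycling from phagosomes, 195 and 144 CPM (0.43, -0.52 to 1.40). The ratio of *Rab11a* exceeded that of *Rab11b* by 0.49 (widened -1.10 to 2.07), which does not separate the isoforms.

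Below 0 under TMM scaling were *Rab14* and *Rab35*. *Rab14*, of early and recycling endosomes, had 227 and 258 CPM (-0.18, widened -1.14 to 0.76), and its removal brought the recycling sum to 0.32 (-0.19 to 0.83). *Rab35*, which acts in fast recycling at the plasma membrane, had 116 and 143 CPM (-0.30, -1.43 to 0.79). *Rab4b* had 178 and 280 reads, *Rab15* 97 and 125, and *Rab4a* 35 in Cd11c-active and 0 in Cd11c-lineage. The Rab11 isoforms, *Rab10* and *Rab4a* therefore lay above 0, and *Rab4b*, *Rab14*, *Rab15* and *Rab35* below it, but *Rab14* was at 0.09 after that trend was removed.

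By summed reads the order of the compartments was early, recycling, late, from higher to lower ratio. Without the member with the most reads in each, recycling (0.32) stood above early (0.14), and late (-0.20) remained lowest. Neighbours in this order did not differ beyond the spread between the libraries. The ratio of the early sum exceeded that of the late sum by 0.46 (widened -0.18 to 1.10) and that of the recycling sum by 0.17 (-0.42 to 0.77). The recycling sum exceeded the late one by 0.28 (-0.37 to 0.94). These 3 differences do not depend on scaling.

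**Figure D4:**
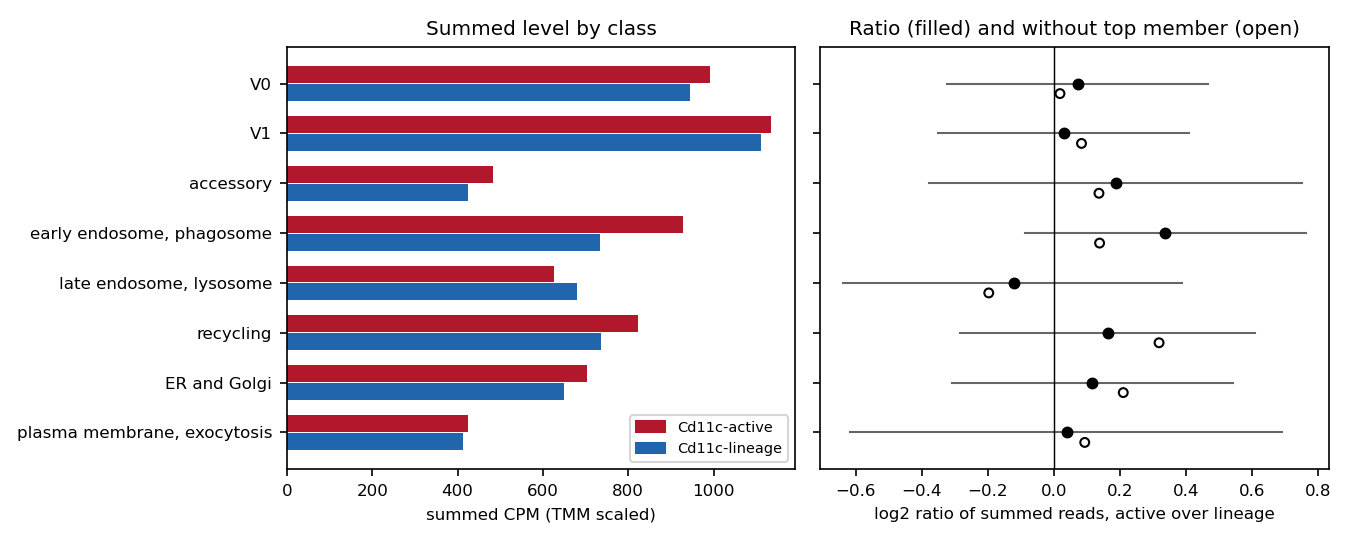
Left, summed level in CPM in both libraries for each class but the unclassed Rabs. Right, log2 ratio of the summed reads (filled points, widened intervals) and the same without the member with the most reads (open points); of the classes drawn the early one is highest at 0.34 and the late one lowest at -0.12, and every interval includes 0.

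The Rabs of the ER and Golgi, which carry newly made proteins, summed to 704 and 649 CPM, a log2 ratio of 0.12 (widened -0.31 to 0.54). The Rab1 isoforms, which act between ER and Golgi, differed in direction. *Rab1a* had 219 and 230 CPM (-0.07, -0.89 to 0.74), whereas *Rab1b* had 148 and 85.5 CPM, 1.73-fold higher in Cd11c-active (0.79, -0.26 to 1.89). Per exon length *Rab1b* made up 53.0% of the Rab1 total in Cd11c-active and 38.3% in Cd11c-lineage. The difference of the ratios, *Rab1b* minus *Rab1a*, was 0.86 (widened -0.39 to 2.10), and the ratio of *Rab1b* was 0.43 after removal of the length and GC trend.

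The other abundant Golgi Rabs lay slightly above 0. *Rab2a* had 103 and 85.9 CPM (0.26, widened -0.91 to 1.43), *Rab18*, of the ER and lipid droplets, 100.3 and 82.0 CPM (0.29, -0.90 to 1.49), and *Rab6a* 62.1 and 56.5 CPM (0.14, -1.36 to 1.63). The remaining 7 had under 1000 reads. *Rab2b* had 246 in Cd11c-active and 82 in Cd11c-lineage, while *Rab30* had 0 and 220 and *Rab36* 0 and 131. *Rab6b* had 293 and 454, *Rab33b* 129 and 280, *Rab40c* 160 and 251 and *Rab43* 56 and 113, all lower in Cd11c-active and short of the threshold. *Rab33b* passes it under library totals, at -1.06.

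**Figure D5:**
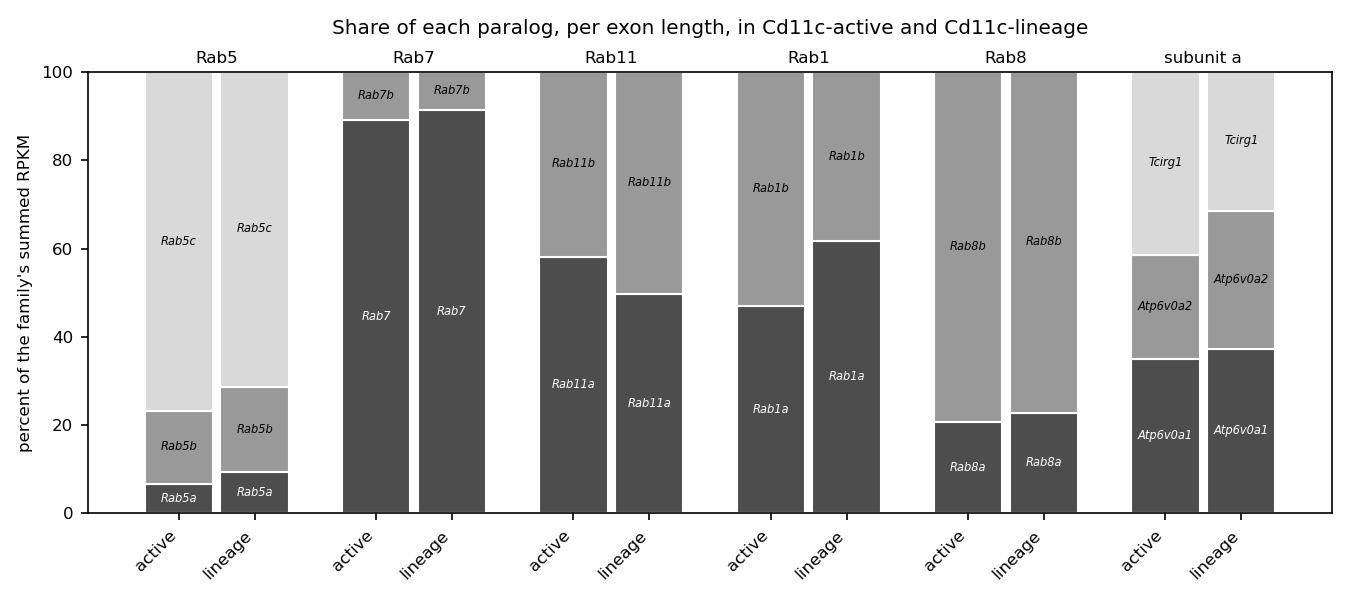
Share of each isoform in the summed RPKM of its family, as a percentage, in Cd11c-active and Cd11c-lineage. The Rab5, Rab7 and Rab8 families have the same main isoform in both libraries. The leading isoform differs in the Rab1 family (*Rab1b* 53.0% in Cd11c-active and 38.3% in Cd11c-lineage) and subunit a (*Tcirg1* 41.4% and 31.4%). In the Rab11 family *Rab11a* has 58.1% in Cd11c-active, and the isoforms are nearly equal in Cd11c-lineage (*Rab11a* 49.8%, *Rab11b* 50.2%).

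The Rabs of the plasma membrane, exocytosis and cilium summed to 424 and 413 CPM, a log2 ratio of 0.04 (widened -0.62 to 0.69), and 6 of the 8 had under 1000 reads. *Rab8b* was the abundant one, with 284 and 281 CPM (0.01, widened -0.86 to 0.88), and *Rab8a* had 73.7 and 82.4 CPM (-0.16, -1.49 to 1.12). *Rab3d*, which acts in regulated secretion, had 407 reads in Cd11c-active against 6 in Cd11c-lineage (log2 ratio 6.16, counting 5.14 to 7.73). Its widened interval began at -0.18 and had no upper end. *Rab13*, which acts at cell junctions, had 149 and 44 reads (1.93, widened -3.18 to 12.12). *Rab23*, of the cilium, had 27 and 200 reads (-2.68, widened -18.64 to 2.43), *Rab3c*, of neurons, 0 and 77, *Rab3a*, also of neurons, 44 and 51, and *Rab28* 194 and 310.

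Markers of other cells, given above as summed levels, also differed between the libraries: 8 of 8 endothelial genes were higher and 7 of 8 neuronal genes lower in Cd11c-active. Of the neuronal Rabs *Rab3c* had all its reads in Cd11c-lineage and *Rab3a* had a ratio of -0.02 (widened -10.88 to 9.73). The part of other cells in the values of this class was not tested. The unclassed *Rab12*, which acts in degradation of recycling receptors, had 47.4 and 59.1 CPM (-0.32, widened -1.97 to 1.24), and *Rab24*, linked to autophagy, had 399 reads in each library.

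Of the 63 members 6 had 0 reads in either library, *Atp6v1fnb*, *Rab29*, *Rab30*, *Rab36* and *Rab3c* in Cd11c-active and *Rab4a* in Cd11c-lineage, beside 21.3% of all genes with at least 20 reads. A count of 0 allows up to 3 reads if reads are independent, and 255 reads at the overdispersion of 84.9. The other library held fewer than that for each of the 6, so no fold is given for them. Overlap with other annotated genes touches several members, most of all some with few reads. Of *Rab2b* exon bases 64.0% lie opposite other genes, and of *Rab24* exon bases 62.4%. On the same strand 75.4% of *Rab43* and 65.0% of *Rab4b* are shared. Smaller shares lie opposite other genes in *Rab20* (25.6%), *Rab6a* (19.0%), *Rab33b* (18.7%) and *Atp6v0b* (11.8%), among others. The reads in these overlaps are uncertain: use of strand in counting is not given in the sources used here. Strand cannot separate the overlaps of *Rab43* and *Rab4b*.

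Other genes of pump assembly and Rab control were described from a list of 70, of which 65 had at least 20 reads. Their median log2 ratio was 0.01, with 7 past the threshold upward and 5 downward, beside 23.3% and 21.6% of all genes. Of the 42 with at least 1000 reads 22 were above and 20 below 0, and 4 were past the threshold, beside 48.6% above 0 and 9.57% past the threshold among all genes with as many reads. The 8 tethering subunits of HOPS and CORVET, which act with Rab7 and Rab5, had a median of 0.07 and none past the threshold. The class III PI3-kinase group, which makes the lipid of early endosomes, had a median of 0.12 over 5 genes, and the 10 Rab5 effectors and exchange factors -0.18. The medians were 0.36 for the 4 genes listed with Arl8 (*Arl8a*, *Arl8b*, *Plekhm2* and *Borcs5*) and 0.26 for 7 recycling effectors. They were -0.02 for the 4 retromer genes, -0.03 for 11 further V-ATPase genes and -0.05 for 7 genes of Rab prenylation and membrane release. The Rab5 to Rab7 exchange factors and Rab7 partners had -0.46 over 9 tested genes, with *Mon1a* at 139 reads in Cd11c-active against 0 in Cd11c-lineage.

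These 4 genes, a share near that of all genes, split evenly. *Eea1*, the tether that Rab5 recruits, had 493 reads in Cd11c-active against 1362 in Cd11c-lineage (-1.28, widened -2.98 to 0.19). *Mon1b*, of the factor that loads Rab7, had 306 and 862 (-1.31, -3.56 to 0.54). *Rin3*, a Rab5 exchange factor, had 832 and 320 (1.56, -0.27 to 3.77). *Vps26a*, of the retromer that retrieves receptors, had 1665 and 750 (1.34, 0.10 to 2.69). *Vps26a* was the single gene of the 65 whose widened interval left out 0, beside 1.83% of all genes, and its paralog *Vps26b* had 704 and 1567 (-0.97, -2.38 to 0.31).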

How the data were processed

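The authors deposited raw read counts per gene for 1 Cd11c-active and 1 Cd11c-lineage library, per the file headers, together with their own log2 fold change and log2 average CPM. The submitters' processing notes name cutadapt 3.5, STAR 2.7.9a, featureCounts 1.6.3, edgeR 4.0.16 and GRCm39. Annotation, strand use and duplicate handling are not given in the sources used here. Per the labels' protocols, ribosomal RNA was depleted and libraries were stranded. Every listed gene had at least 6 reads over both libraries. No column of another sample was present (0).

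Counts were scaled with TMM from edgeR 4.0.16 in R 4.3.3 (factors 0.954 and 1.05). Log2 ratios used 0.5 added reads (none for sums). Differences of ratios have normal 95% intervals with the same overdispersion. With 1 library per group no residual degrees of freedom remain for edgeR or DESeq2, so no p-value is given. RPKM used union exon length from GENCODE M21 (GRCm38), matched by identifier for 99.6% of genes and all 63 members. Promoters came from RefSeq GRCm38.p6; *Atp6v0a2*, *Atp6v1b2*, *Atp6v1c1*, *Atp6v1g1*, *Atp6v1h*, *Rab18*, *Rab2a*, *Rab30*, *Rab36*, *Rab4a* and *Rab7b* had no match. The ratio and interval procedure was tested on simulated data. Python 3.11.15, numpy 2.4.6, scipy 1.17.1, pandas 2.3.3 and matplotlib 3.10.9 were used.

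Members and lists were chosen with earlier results of these data known. Members with at least 1000 reads, or a widened interval without 0, are described in full, and of other pathway genes those with at least 1000 reads past the threshold are named. *Tcirg1*, *Mon1a*, *Vps26b* and the isoform pairs were singled out after their values were seen. Alternatives were library totals, DESeq2 1.42.0 size factors, other minimums and added reads, and removal of a length trend. Removal of a length and GC trend was added after the data were seen.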

Additional observations from a re-analysis of the deposited data

How the results depend on the processing

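Of 57 alternative values of the counts, medians and sums, 53 were counted as close to the reported ones. For counts this meant within 1.5 times, and all sums stayed within their widened intervals. The medians stayed within the widened interval of their group's summed reads, except that of the Rabs under library totals. That median was -0.12, outside the interval of -0.09 to 0.32, and it is counted among the 53. With a minimum of 1000 reads the members past the fold threshold numbered 0 for V-ATPase members lower in Cd11c-active (1 with 20 reads), and 0 for Rabs in either direction (6 higher and 5 lower with 20 reads), because all of these had fewer reads. Removal of the length trend raised the Rabs lower in Cd11c-active to 8, and the cause was not tested. For the 39 members described in full all 156 alternative log2 ratios stayed within the widened interval. The alternatives shift the ratios by less than these intervals are wide, so this count does not show robustness. Library totals, for example, lower every ratio by 0.14. Members that changed sign are included. No paired analysis was possible because each group had 1 library, and for the same reason no library could be left out. The widened intervals of the 24 members with under 1000 reads all include 0, and they are wide at that depth, so these members are not shown to be equal. Counting intervals and limits cover counting error only, since the labels name no molecular identifiers that would tell PCR copies apart.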
